A study of Mus musculus with 4 samples.

Results

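The half-methylated stretches of 10 imprinted genes (H19, Peg3, Mest, Snrpn, Kcnq1ot1, Plagl1, Grb10, Igf2r, Nnat and Impact) were read out in whole-genome bisulfite data of the mouse colon. They were set among 34654 autosomal genes, which are those of the GENCODE annotation and Kcnq1ot1, which was not in that annotation and was placed by its RefSeq promoter sequence. For each gene the window from 5 kb upstream to the gene end was searched for a stretch of high CpG density of intermediate methylation. Such a stretch lay in the window of 10 of the 10 genes, against 4.14% of all 34654 autosomal genes and 5.44% of the 19786 genes whose windows were as long as those of the 10. The 10 were chosen with earlier results of these data known. In a longer list of imprinted genes, described below and also chosen with earlier results known, 20 of 28 had such a stretch. Of these 20 genes, 3 shared a stretch with the 10. The intermediate level was part of the search and is therefore a description. The differences between libraries were not part of it, other than by keeping the mean intermediate.

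DNA came from the colon of Lgr5-EGFP-CreER reporter mice, in which the fluorescent protein and an inducible recombinase are expressed from the locus of Lgr5, a stem cell gene. The mice were of the C57 strain, and no gene was deleted and no agent given in any group of these libraries. Intestinal stem cells (ISCs) were sorted by their fluorescence, and differentiated epithelial cells by the surface protein EpCAM and the absence of fluorescence. Both were sorted from newborn mice (P0, day 0) and from mice at weaning (P21, day 21). The 4 groups had 1 library each, made from the DNA of pooled mice, without replicates, so the spread between animals is unknown. Mice were pooled by age, so both populations of an age may come from the same mice, and a difference between ages seen in both is then that of 1 pool against another. The reporter mice had been backcrossed to C57BL/6 J and were mated with C57 mice, and the maternal and paternal alleles were not told apart.

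At an imprinted gene only 1 parental copy is expressed, and the choice follows DNA methylation set in the egg or the sperm. Such a control region is methylated on 1 parental copy and unmethylated on the other, so that bulk DNA reads as partly methylated, with about as many methylated as unmethylated copies, and the mark is kept through cell division in body tissues. In the colon the same rule would give each cell of the epithelium a methylated and an unmethylated copy, unless the mark was lost or spread. Of the 10 genes, H19 is controlled by methylation from the sperm and the other 9 by methylation from the egg.

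The control regions are marked in the sequence by short motifs. ZFP57, a zinc finger protein that keeps the mark on the methylated copy, recognises TGCCGC. CTCF, which binds the unmethylated copy upstream of H19, recognises a longer motif whose core was searched here as CGNGGNGGC. Both were searched on both strands. Sites of the H19 control region are shown first, because the 3 matches to the CTCF core in the 2 half-methylated stretches upstream of H19 are nearly alike. They lie 2172, 2627 and 3897 bases upstream of the annotated start of H19 and are printed on the minus strand of mm9, which is the strand of H19, with the core in capitals. In the first and the third of them the core overlaps a TGCCGC.
H19 site at chr7:149766204-149766236: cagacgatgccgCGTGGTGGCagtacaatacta
H19 site at chr7:149766659-149766691: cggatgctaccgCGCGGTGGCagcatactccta
H19 site at chr7:149767929-149767961: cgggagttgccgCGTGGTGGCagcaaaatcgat

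The TGCCGC nearest to the centre of the stretch and outside the exons of protein-coding genes is shown for 6 other genes, with Impact left out, since this hexamer recurred in most of the stretches. Each is printed with 17 bases on either side, with the hexamer in capitals, on the plus strand of mm9 for Peg3, Kcnq1ot1 and Plagl1 and on the minus strand for Mest, Snrpn and Igf2r.
Peg3, chr7:6682407-6682446: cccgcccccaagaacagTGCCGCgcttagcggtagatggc
Mest, chr6:30687791-30687830: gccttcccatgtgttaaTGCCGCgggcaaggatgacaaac
Snrpn, chr7:67149581-67149620: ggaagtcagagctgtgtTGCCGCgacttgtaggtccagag
Kcnq1ot1, chr7:150481629-150481668: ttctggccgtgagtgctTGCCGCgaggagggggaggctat
Plagl1, chr10:12810853-12810892: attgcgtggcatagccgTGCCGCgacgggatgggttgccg
Igf2r, chr17:12935042-12935081: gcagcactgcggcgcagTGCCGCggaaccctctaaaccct

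In the 1000 bp around the centre of the stretch, TGCCGC occurred in 9 of the 10 genes, with a median of 5 matches and at most 9 (Mest and Snrpn). The exception was the promoter stretch of H19, with 0 matches, while the 2 stretches upstream of H19 held 3 each. At least 3 matches were found in 8 of the 10 genes. Of all 1982 autosomal stretches found by the same rule, 31.4% had a match in 1000 bp and 1.97% had at least 3. Of the 65752 autosomal runs of high CpG density at any methylation level, 36.4% had a match and 2.44% had at least 3. The CTCF core was no shared feature, with a match in 3 of the 10 (H19, Snrpn and Grb10) and in 17.7% of all stretches and 18.2% of all runs of high CpG density. These are matches of letters and not measured binding.

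Methylated and unmethylated calls were summed over both strands of a CpG and over bins of 200 bp. Bins were used if 2 or more CpGs lay in them and each of the 4 libraries gave 10 calls or more. A bin was called CGI-like (dense in CpGs, as in a CpG island) when it and its neighbours held at least 15 CpGs in 600 bp, and intermediate when its mean level over the 4 libraries was 30 to 70%. A stretch had at least 3 such bins with at most 1 failing bin between them. A gene was given the stretch with the most such bins, and on a tie the one nearest to its start. H19 had such a tie, with 6 bins in its promoter stretch and 6 in the nearer of the 2 stretches upstream. The level of a stretch is the methylated calls in percent of all calls over its CpGs. The intervals in parentheses are 95% Wilson intervals in which each bin counted with its mean number of calls per CpG, because CpGs on 1 read come from 1 molecule. They cover counting error only, since reads were amplified by PCR without molecular identifiers. A read pair can reach over more than 1 bin and then still counts more than once, so the intervals may be too narrow.

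The libraries held between 1023427645 and 1188114423 calls, with a median of 16 to 25 calls per covered CpG. In the 10 stretches the mean number of calls per CpG was 12.3 to 36.9 in the ISC libraries and 23.5 to 64.6 in the differentiated libraries, which were deeper in each stretch by a factor of 1.34 to 4.11. The sorted populations were checked at promoters of marker genes. The promoters of Epcam, Vil1, Cdh1, Krt8, Cdx1, Cdx2, Lgr5, Ascl2 and Smoc2 were at 0.0 to 5.3% in all 4 libraries, and Krt20 was at 50.0 to 56.2%. The stem cell markers among them (Lgr5, Ascl2 and Smoc2) were this low in both populations, so they do not tell ISCs from differentiated cells. Of the blood markers, Ptprc and Cd3e were at 72.5 to 89.2% and Laptm5 at 57.0 to 63.0%. Of the 2 endothelial markers, Pecam1 was at 68.2 to 75.5% and Cdh5 at 48.7 to 61.4%. The 3 stromal markers (Col1a2, Pdgfra and Dcn) were at 1.1 to 18.3%, so that low methylation at these promoters does not tell epithelium from stroma.

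Around most of the stretches the DNA was more methylated than in them. In the plot of the bins around each stretch, Impact had the plainest borders, with 97.2% at 1 to 2 kb upstream and 92.4% at 1 to 2 kb downstream (means of the 4 libraries) against a mean of 44.8% inside. Plagl1 (91.0 and 80.5%), Grb10 (67.1 and 84.1%), Kcnq1ot1 (81.2 and 69.0%), Snrpn (66.5 and 82.9%) and Igf2r (75.3 and 63.4%) were also higher on both sides in these means. Peg3 (65.7 and 55.1%) and Mest (57.4 and 83.6%) were higher on both sides too, if little on 1 of them. In single ISC libraries the downstream side was below the stretch for Kcnq1ot1 at P21 (68.5 beside 73.2%), for Igf2r at P0 (54.9 beside 60.1%) and for Peg3 at both ages. H19 was not, with 26.0% downstream and 54.9% upstream, where another of its half-methylated stretches begins, beside 55.2% inside. Nnat was at 86.1% upstream but at 56.4% downstream, beside 57.7% inside. The median level over the tested bins of the window was 71.5 to 89.7% for 9 of the genes and 59.3% for H19. The H19 window held 17 intermediate bins among 19 CGI-like ones.

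**Figure D1:**
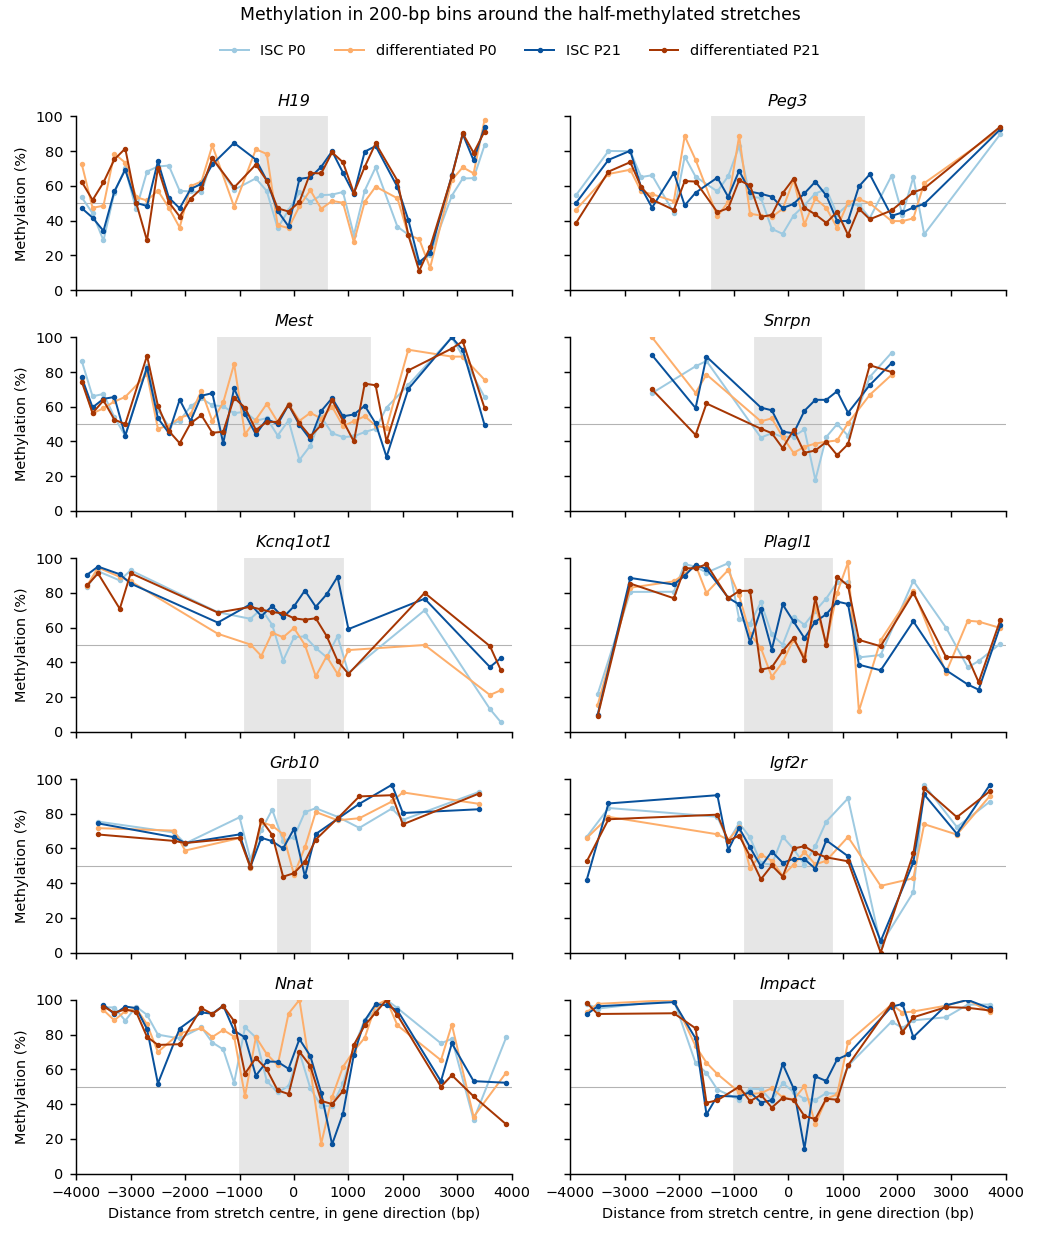
Methylation level (percent) of 200-bp bins against the distance from the centre of the stretch in bp, in the direction of the gene, for the 10 genes. Each line is 1 library and the grey band is the stretch. The level inside the bands is mostly between 30 and 70%, and in the Kcnq1ot1 panel both P21 lines lie above the P0 lines over most of the band.

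H19 makes a noncoding RNA from the maternal copy. Its stretch (ENSMUSG00000000031.9, chr7:149763401-149764600, 44 CpGs) covered the promoter and the start of the first exon, from 552 bases upstream to 647 bases downstream of the gene start. The level was 51.1% (42.9 to 59.1) for ISCs and 50.1% (43.9 to 56.1) for differentiated cells of P0 mice. In P21 mice it was 60.5% (52.5 to 67.8) for ISCs and 59.1% (52.9 to 65.3) for differentiated cells. The P21 libraries were higher in both populations, by 9.38 and 8.91 points, and the intervals of P0 and P21 overlapped in both. Most of the calls lay on the reverse strand, with 816 to 1547 calls against 82 to 169 on the forward strand. The reverse strand went from 49.4 to 59.8% in ISCs and from 48.4 to 58.5% in differentiated cells. The forward strand went from 61.0 to 64.5% and from 66.3 to 69.5%. Calls were also uneven between strands at Snrpn (mostly reverse) and Igf2r (mostly forward).

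The control region proper of H19 lies upstream, and both stretches found there were intermediate as well. The stretch at chr7:149765801-149767000 (centre 2352 bases upstream, 42 CpGs) was at 61.9% (54.1 to 69.8) for ISCs and 49.4% (43.4 to 55.8) for differentiated cells at P0, and at 53.8% and 49.2% at P21. The stretch at chr7:149767401-149768000 (centre 3652 bases upstream, 18 CpGs) was at 45.2% and 52.3% at P0 and at 42.9% and 54.9% at P21. These 2 did not share the order of the libraries. Their shifts from P0 to P21 were -8.16 and -2.28 points in ISCs, beside 9.38 points at the promoter, and -0.160 and 2.60 points in differentiated cells, beside 8.91 points at the promoter. At the 3 printed CTCF core matches the levels rested on 52 to 144 calls in a library and ranged from 28.3 to 83.8%.

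Peg3, Mest and Snrpn are expressed from the paternal copy, and each stretch contained transcript starts of its gene. Peg3 encodes a zinc finger protein, and its stretch (ENSMUSG00000002265.8, chr7:6681201-6684000, 118 CpGs) covered the gene start. Its level at P0 was 56.4% (51.0 to 61.5) for ISCs and 48.0% (44.2 to 51.8) for differentiated cells, and at P21 it was 55.4% (50.3 to 60.6) and 48.1% (43.7 to 52.6). The P0 and P21 libraries of a population thus differed little, by -1.01 points in ISCs and 0.108 points in differentiated cells. The level of differentiated cells minus that of ISCs was -8.44 points for the P0 libraries and -7.32 points for the P21 libraries, and neither difference was called. It was not shared by all parts of the stretch. Differentiated cells were higher in 6 of 14 bins and 55 of 118 CpGs at P0, and in 4 of 14 bins and 39 of 118 CpGs at P21.

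Mest encodes a protein of the alpha/beta hydrolase fold. Its stretch (ENSMUSG00000051855.8, chr6:30686401-30689200, 133 CpGs) began 12854 bases downstream of the outermost annotated start and contained the start of other Mest transcripts. With 14 intermediate bins it was the longest of the 10. The level was 48.9% (43.1 to 55.0) for ISCs and 54.3% (50.4 to 58.3) for differentiated cells at P0, and 53.4% (48.0 to 58.7) and 51.3% (47.2 to 55.5) at P21. The 4 levels spanned 5.45 points, the least of the 10 genes, and all intervals overlapped. The window held 2 shorter stretches nearer to the outermost start, with mean levels of 51.8% and 50.9%.

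Snrpn encodes a protein of the spliceosome. The annotated gene begins far upstream, and the stretch (ENSMUSG00000000948.9, chr7:67149001-67150200, 47 CpGs) lay 134905 to 136104 bases downstream of that start, at the start of another Snrpn transcript. Its level was 42.4% (31.3 to 53.3) for ISCs and 43.3% (36.7 to 50.4) for differentiated cells of P0 mice. In P21 mice it was 52.4% (42.5 to 62.8) and 41.6% (34.5 to 48.7). The ISC library of P21 was the highest, but this stretch had the fewest calls of the 10 in each library (576 to 1548), and all intervals overlapped. ISC P21 was above ISC P0 in 6 of 6 bins and in 31 of 43 CpGs with at least 5 calls.

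Kcnq1ot1 is a long noncoding RNA made from the paternal copy, antisense to the potassium channel gene Kcnq1, and is known to silence neighbouring genes on the same chromosome. Its stretch (chr7:150480801-150482600, 99 CpGs) lay in an intron of Kcnq1, from 148 bases upstream to 1651 bases downstream of the Kcnq1ot1 start. The level at P0 was 55.0% (49.4 to 60.6) for ISCs and 48.7% (44.7 to 53.0) for differentiated cells. At P21 it was 73.2% (68.0 to 77.8) for ISCs and 65.5% (61.3 to 69.3) for differentiated cells. The 2 libraries of P21 were above the 2 libraries of P0, with intervals that did not meet within either population. This stretch was the deepest of the 10 in each library. It had 36.9 and 36.7 calls per CpG in ISCs at P0 and P21, and 64.6 and 64.0 in differentiated cells. The others had at most 24.9 in ISCs and 57.2 in differentiated cells.

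The rise was 18.1 points in ISCs and 16.8 points in differentiated cells. The call of a stretch needed a two-sided Fisher's exact test that, with Benjamini-Hochberg adjustment over all 1982 autosomal stretches, gave an adjusted p below 0.05, and a difference over 15 points. The test compares 2 libraries and not the conditions. Kcnq1ot1 was called in both populations, and it was still called when each bin counted with its mean calls per CpG, with an adjusted p of 9.25e-05 in ISCs and 7.55e-07 in differentiated cells by Fisher's exact test. With the calls of each CpG thinned to the lowest library the rise was 20.1 points in ISCs and 14.9 points in differentiated cells, where it was no longer called. None of the other 9 was called in either comparison of ages. Over all stretches 28.0% were called in ISCs and 23.1% in differentiated cells (22.3% and 18.4% as rises), so a call of this kind was common among half-methylated stretches. With the counts of each bin scaled in this way, 14.9% and 18.0% were called.

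Within the Kcnq1ot1 stretch the rise was spread over many CpGs. P21 was above P0 in 8 of 9 bins in ISCs and in 9 of 9 in differentiated cells, and in 84 and 92 of the 99 CpGs. The bin levels were 41.0 to 70.8% in ISCs at P0 and 65.9 to 89.3% at P21. The bin at chr7:150482201-150482400 went from 70.8 to 66.7% in ISCs and from 43.7 to 70.5% in differentiated cells, so the 2 populations were not alike in each bin. Both strands showed the rise. On the forward strand ISCs went from 57.1 to 72.5% and differentiated cells from 52.4 to 69.5%, and on the reverse strand from 49.0 to 75.0% and from 42.9 to 58.5%.

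The 1 bin of this stretch called between ages in both populations, among 5 called in ISCs and 3 in differentiated cells, is printed with its CpGs in capitals. These calls counted every call as independent. Of all CGI-like bins of intermediate level, 17.4% were called between ages in ISCs and 17.8% in differentiated cells. With each bin counted with its mean calls per CpG, no bin of the 10 stretches was called. In ISCs its level went from 48.2% at P0 (of 224 calls) to 72.0% at P21 (of 218), and in differentiated cells from 32.0% (of 588) to 65.4% (of 471). For comparison, a bin of the Igf2r stretch is printed, which had the smallest range of the 4 libraries among the bins of at least 10 CpGs in the stretches of the 10 genes, leaving out coding-gene exons and Impact (2 Impact bins had smaller ranges), at 50.7, 53.0, 58.3 and 50.3% in ISCs P0, differentiated P0, ISCs P21 and differentiated P21. Both were chosen by their values and are shown on the plus strand of mm9.
Kcnq1ot1 bin, chr7:150481201-150481400: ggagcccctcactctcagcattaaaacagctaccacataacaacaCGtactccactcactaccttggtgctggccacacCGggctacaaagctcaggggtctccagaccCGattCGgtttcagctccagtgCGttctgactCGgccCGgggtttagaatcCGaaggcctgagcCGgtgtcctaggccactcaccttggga
Igf2r bin, chr17:12935201-12935400: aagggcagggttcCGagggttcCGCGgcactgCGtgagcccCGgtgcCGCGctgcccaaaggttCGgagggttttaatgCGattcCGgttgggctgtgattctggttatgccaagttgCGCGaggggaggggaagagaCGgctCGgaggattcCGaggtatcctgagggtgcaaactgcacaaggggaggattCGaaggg

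**Figure D2:**
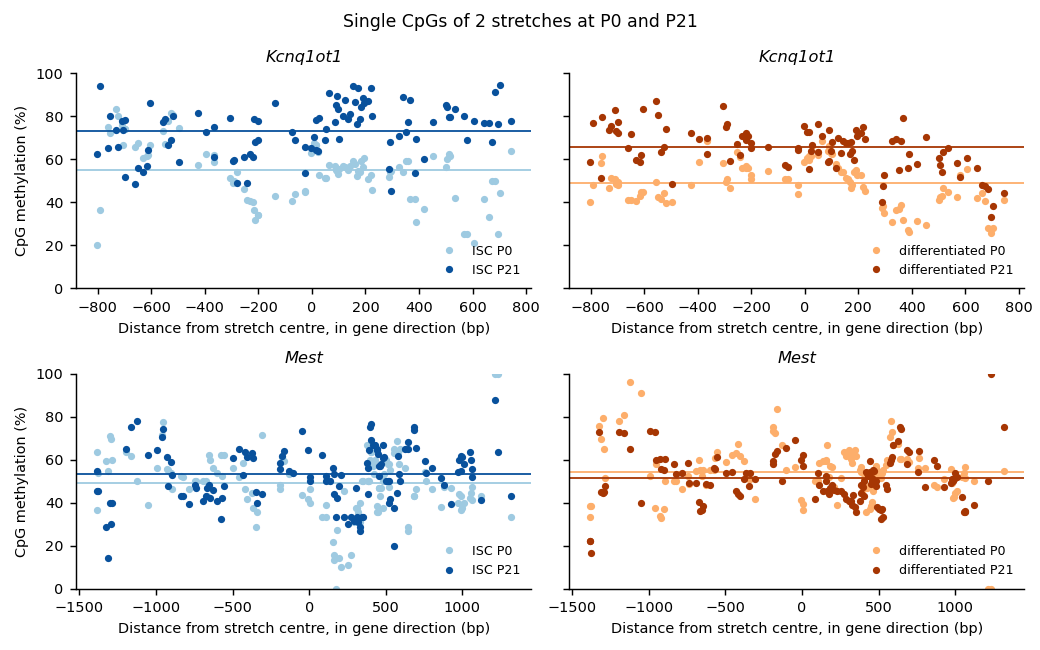
Methylation level (percent) of each CpG of the Kcnq1ot1 stretch (99 CpGs, top) and the Mest stretch (133 CpGs, bottom) against the distance from the centre of the stretch in bp, in ISCs (left) and differentiated cells (right), with P0 pale and P21 dark. Horizontal lines are the levels of the whole stretch, which lie 18.1 and 16.8 points apart for Kcnq1ot1 and 4.55 and 3.03 points apart for Mest.

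Plagl1 encodes a zinc finger transcription factor and is expressed from the paternal copy. Its stretch (ENSMUSG00000019817.11, chr10:12810001-12811600, 97 CpGs) covered the gene start. The level was 63.7% (55.1 to 72.2) for ISCs and 44.5% (38.4 to 50.9) for differentiated cells at P0, and 61.4% (53.6 to 69.1) and 47.0% (40.7 to 53.9) at P21. The 2 ISC libraries were above the 2 differentiated libraries, with intervals that did not meet at P0 and met narrowly at P21, and age made a difference of 2.50 points or less in size.

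Plagl1 was the 1 gene called between differentiated cells and ISCs at P0, with a difference of -19.2 points. By the same rule 2.02% of all stretches were called at P0 (0.908% as lower in differentiated cells) and 2.77% at P21, where none of the 10 was called and Plagl1 differed by -14.4 points. The call at P0 counted every call as an independent observation. When each bin counted with its mean calls per CpG, the adjusted p was 0.33 by Fisher's exact test, and none of the 1982 stretches was called (0.0%). With the calls of each CpG thinned to the lowest library the difference was -14.0 points, under the 15-point limit. Differentiated cells were higher in 11 of 84 CpGs at P0 and in 19 of 97 at P21. The differentiated libraries had 2.55 and 1.83 times the calls of the ISC libraries here, and the part of depth in the difference was not tested beyond this thinning.

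Grb10 encodes an adaptor protein that dampens insulin receptor signalling and is expressed from the maternal copy in most tissues. Its stretch (ENSMUSG00000020176.10, chr11:11925601-11926200) was the shortest, with 3 bins, but held 61 CpGs and had the highest GC content of the 10 (66.3%). It lay 12486 to 13085 bases downstream of the gene start and overlapped a Grb10 exon. The level was 68.6% (55.2 to 80.9) for ISCs and 58.5% (50.0 to 66.9) for differentiated cells at P0, and 58.5% (44.3 to 71.7) and 46.3% (37.0 to 56.8) at P21. The levels spanned 22.3 points, from ISCs at P0 to differentiated cells at P21, which were not tested against each other. The 4 differences that were tested lay between -12.2 and -10.1 points and were not called, and the 4 intervals shared the values between 55.2 and 56.8%. The bins on either side were CGI-like and just past the upper limit of the search, at 74.4 and 71.9%.

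Igf2r encodes a receptor that takes up and clears the growth factor Igf2, and is expressed from the maternal copy. Its stretch (ENSMUSG00000023830.7, chr17:12934201-12935800, 97 CpGs) lay in an intron at the start of Airn, the antisense noncoding RNA that is made from the paternal copy. The level was 60.1% (52.6 to 66.7) for ISCs and 52.5% (47.7 to 57.2) for differentiated cells at P0, and 55.1% (48.0 to 62.3) and 51.7% (46.5 to 57.0) at P21, with all intervals overlapping. A second stretch at chr17:12961801-12963000 lay over the Igf2r promoter, which is known to gain methylation on the silent copy after fertilisation. It was less even, at 50.0% (39.2 to 62.2) and 33.1% (26.7 to 39.9) at P0 and 41.4% (32.2 to 52.0) and 43.9% (37.0 to 51.0) at P21. The range was 17.0 points in the promoter stretch and 8.38 points in the Airn stretch.

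Nnat encodes neuronatin, a small membrane protein, and is expressed from the paternal copy. The gene lies within Blcap, and its stretch (ENSMUSG00000067786.9, chr2:157385601-157387600, 102 CpGs) covered the start of Nnat. The level was 55.2% (48.5 to 61.3) for ISCs and 59.2% (53.1 to 64.8) for differentiated cells at P0, and 61.3% (54.8 to 67.2) and 54.9% (48.7 to 61.2) at P21. The range was 6.32 points with all intervals overlapping, though single CpGs of this stretch varied more than those of the others, with 75.5% of them at a pooled level of 30 to 70% against 84.1 to 99.0% in the other 9. Its bins did not move together either. Differentiated minus ISC at P0 ran from -39.6 to 41.7 points over the 10 bins. With every call counted as independent, 4 bins were called higher and 2 lower in that comparison. Of all CGI-like bins of intermediate level, 3.21% were called in it. With each bin counted with its mean calls per CpG, no bin of the stretch was called.

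Impact encodes an inhibitor of a kinase that represses translation, and is expressed from the paternal copy. Its stretch (ENSMUSG00000024423.5, 131 CpGs) lay in an intron on chromosome 18 from 440 to 2439 bases downstream of the gene start. The level was 45.9% (38.0 to 54.0) for ISCs and 43.6% (39.5 to 47.6) for differentiated cells at P0, and 48.7% (42.0 to 55.6) and 41.1% (36.7 to 45.5) at P21. All intervals overlapped within a range of 7.59 points. No single CpG of this stretch had a pooled level above 53.4%.

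**Figure D3:**
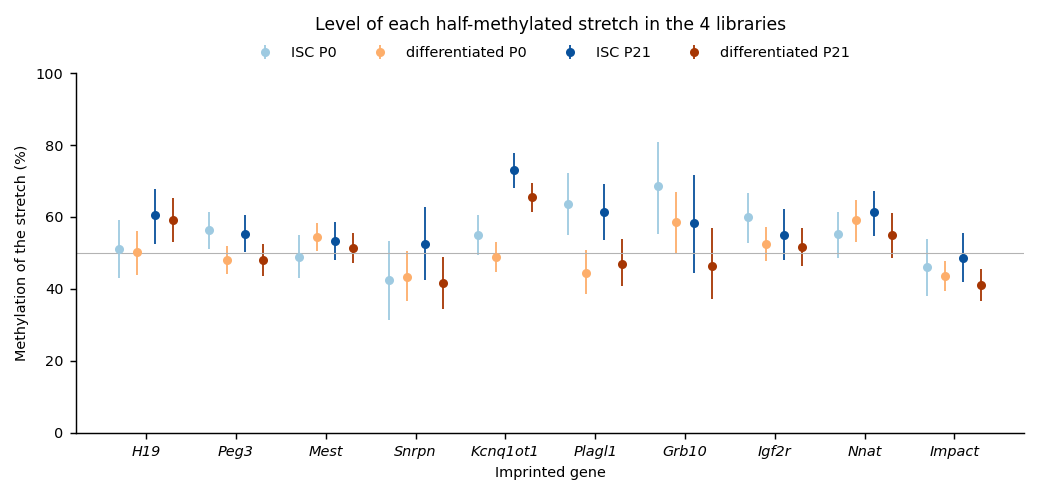
Methylation level (percent) of the half-methylated stretch of each of the 10 genes in the 4 libraries. Points are levels and bars 95% Wilson intervals with each bin counted with its mean calls per CpG. The P21 points of Kcnq1ot1, at 73.2 and 65.5%, lie above its P0 points, and the ISC points of Plagl1, at 63.7 and 61.4%, above its differentiated points.

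The stability of the stretches was described by the range, the highest minus the lowest of the 4 library levels. Its median over the 10 was 9.39 points, from 5.45 (Mest) to 24.4 (Kcnq1ot1), beside a median of 11.7 points over all 1982 stretches. The order from the smallest was Mest, Nnat, Impact, Igf2r, Peg3, H19, Snrpn, Plagl1, Grb10 and Kcnq1ot1. From Nnat to Peg3 the ranges lay between 6.32 and 8.44 points, less apart than the intervals are wide. The 10 stretches were long, with a median of 8.5 intermediate bins against 3 for all stretches, and long stretches have more calls. Among the 122 stretches of at least 6 bins the median range was 9.86 points, and 8.44 points over the 9 members among them. Of the 48 stretches of at least 8 bins, 6 lay in the windows of the 10 genes. In all, 2 of the 10 stretches were called in at least 1 comparison, against 34.1% of all stretches. Among those of at least 6 bins, 2 of the 9 members were called, against 27.9%. With each bin counted with its mean calls per CpG, 1 of the 10 was called, against 21.2% of all stretches.

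**Figure D4:**
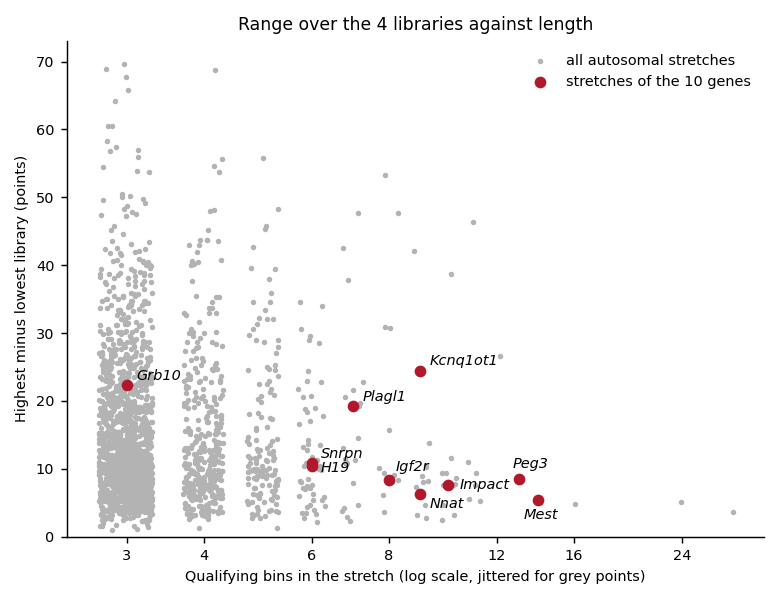
Range over the 4 libraries (highest minus lowest level, in percentage points) against the number of intermediate bins of a stretch on a log scale. Grey points are the 1982 autosomal stretches and red points the stretches of the 10 genes. Mest and Peg3 lie at the long end with ranges of 5.45 and 8.44 points, while Kcnq1ot1, Plagl1 and Grb10 lie at 24.4, 19.2 and 22.3 points.

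From P0 to P21 the 10 stretches did not move in 1 direction. In ISCs 6 were higher and 4 lower at P21, with a median of 3.66 points, and over all stretches 67.6% were higher with a median of 4.51 points. In differentiated cells 4 were higher and 6 lower, with a median of -1.27 points against 3.43 points over all stretches. Over the 122 stretches of at least 6 bins the medians were 5.32 points in ISCs and 4.32 points in differentiated cells, with 21.3% and 23.8% lower. Grb10 (-10.2 and -12.2 points) and Igf2r (-4.97 and -0.854 points) were lower at P21 in both populations. H19, at its promoter stretch, and Kcnq1ot1 were higher in both. The upstream H19 stretch that tied with the promoter stretch in bins differed by -8.16 and -0.160 points. The other genes had opposite signs in the 2 populations. They lay between -2.27 and 10.05 points in ISCs and between -4.30 and 2.50 points in differentiated cells.

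Differentiated cells were below ISCs in 7 of the 10 stretches at P0, with a median difference of -4.34 points, and in 10 of 10 at P21, with a median of -7.45 points. Over all stretches the medians were -0.0863 and -0.973 points, and 49.5% and 42.1% were higher in differentiated cells. Over the whole genome, the paper also reports lower mean methylation in differentiated cells than in ISCs at both ages. At P21 the differences ran from -14.4 points (Plagl1) to -1.42 points (H19), and the intervals of the 2 P21 libraries overlapped in each of the 10 genes. The differentiated libraries were deeper in each stretch. With the calls of each CpG thinned to the lowest library the counts were again 7 of 10 at P0 and 10 of 10 at P21, and the medians were -2.56 and -7.53 points. The median at P0 ran from -7.26 to -1.88 points over the alternatives. At P21 the count was 6 of 9 on the forward strand alone (median -4.14 points), 8 of 10 on the reverse strand alone, 8 of 10 with a limit of 10 CpGs in 600 bp and 6 of 8 with a limit of 30 CpGs. Of the 5 other stretches in the windows of the 10 genes, 4 were lower in differentiated cells at P0 and 2 at P21 (medians -6.31 and 2.54 points). Of the 13 stretches of a longer list of imprinted genes, described last, 6 were lower at P0 and 8 at P21, with medians of 0.701 and -0.604 points.

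**Figure D5:**
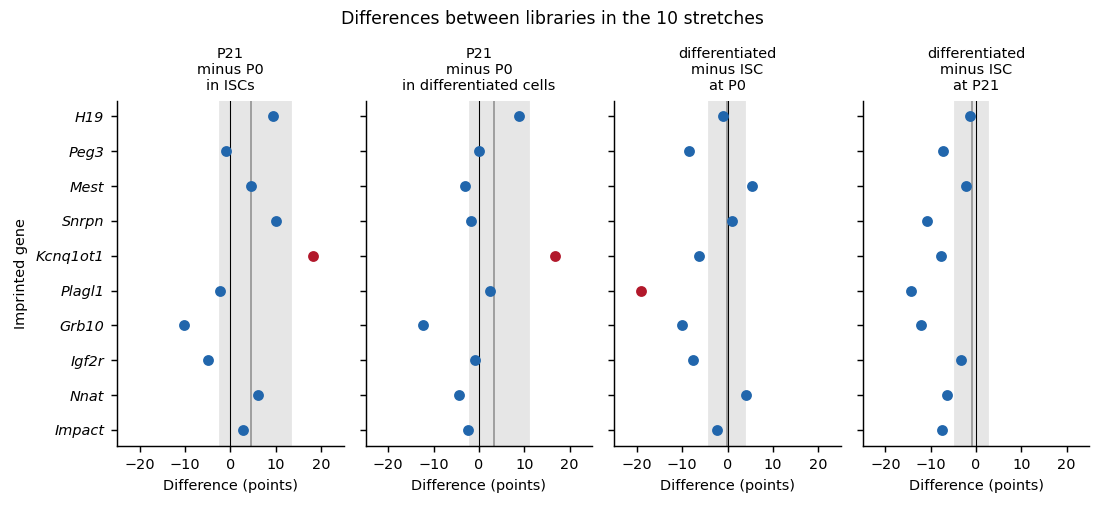
Differences between 2 libraries (percentage points) in the stretches of the 10 genes, for P21 minus P0 in ISCs and in differentiated cells and for differentiated minus ISC at P0 and at P21. Red points were called and blue points were not, and the grey band and line are the quartiles and median of all 1982 stretches. The points of differentiated minus ISC at P21 all lie below 0, between -14.4 and -1.42 points.

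Single bins were compared with every call as an independent observation. Of the 88 tested bins in the 10 stretches, 18 were called between ages in ISCs and 14 in differentiated cells, and 21 between the populations at P0 and 16 at P21, by Fisher's exact test adjusted over 4076373 bins with a difference over 15 points. Over all tested bins 2.55%, 2.85%, 0.508% and 0.182% were called in these 4 comparisons. Over the 37490 CGI-like bins of intermediate level the shares were 17.4%, 17.8%, 3.21% and 1.94%. Of the bins of the 10 stretches 20.5 and 15.9% were called between ages, beside 17.4 and 17.8% of all bins of this kind, and 23.9 and 18.2% between the populations, beside 3.21 and 1.94%. With each bin counted with its mean calls per CpG, 0 of the 88 were called in any of the 4 comparisons, against 0.235% of all tested bins and 1.25% of the CGI-like bins of intermediate level. Counting in this way also leaves few calls in each bin, so large differences can be missed. It therefore cannot tell whether the calls of single bins came from counting the CpGs of a read as independent.

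The bins at the ends of the stretches show where the search stopped. The last bins inside had mean levels of 38.9 to 66.2%. On 6 sides (both sides of Plagl1, Grb10 and Nnat) the next bin was CGI-like and above the limit, at 71.5 to 82.6%. On the other sides with a tested neighbour, that bin fell short of the CpG density and had a level of 43.4 to 73.2%, so intermediate methylation ran on past the end of several stretches.

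A longer list of imprinted genes gave the background for the 10. Of 30 further genes, 28 were in the annotation and 20 had a half-methylated stretch, of which 3 (Blcap, Kcnq1 and Airn) shared that of Nnat, Kcnq1ot1 or Igf2r. The other 17 genes had 13 stretches between them, with a median range of 7.56 points (2.67 to 13.7). In any comparison 0 of the 13 were called, against 34.1% of all stretches. A call needed a difference over 15 points, so the ranges of these 13 alone left none to be called, whatever Fisher's exact test gave. The longest, shared by Gnas and Nespas with 29 bins, was at 54.9, 51.3, 53.3 and 52.8% in ISCs P0, differentiated P0, ISCs P21 and differentiated P21. Peg10 and Sgce shared the next, with 16 bins and a range of 4.8 points. The largest range was that of Igf2, with 39.9, 50.3, 53.6 and 51.3%, followed by H13 with Mcts2 (11.4 points) and Inpp5f (9.8 points). The 8 genes with no stretch were Copg2, Herc3, Nap1l5, Zim1, Usp29, Magel2, Peg12 and Rasgrf1. In 1000 bp, TGCCGC matched in 7 of the 13 stretches, with at least 3 matches in 3.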

How the data were processed

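Genomic DNA of 4 sorted pools was bisulfite-converted, amplified and sequenced as paired-end reads. The authors trimmed the reads and mapped them to mm9 with Bismark, and neither the version nor any removal of duplicates is stated. Counts of calls and of methylated calls per cytosine were deposited for each library and used here, and the deposited fraction was not. Positions were matched to the CpGs of NCBIM37 (mm9), and strands were summed, on autosomes only. Genes came from GENCODE M1. Kcnq1ot1 was placed by the 1 match of its RefSeq promoter sequence to mm9, with its start at position 150482452 of chromosome 7 and the RefSeq length of 83437 bp. Fisher's exact tests (SciPy 1.17.1, numba 0.67.0, Python 3.11.15) used a chi-square test above 40000 calls and were tested on simulated data. Intervals came from statsmodels 0.14.6. The members and lists were chosen with earlier results of these data known. Named were all 10 genes, from the longer list the 4 with the most bins and the 4 with the largest range, and the 8 longest other stretches with a range of at most 10 points. One marker gene of the cell type check is not reported here. Alternatives changed the minimum calls, level limits, CpG density, bins, libraries that choose the stretch, averaging, depth, strand and the limits of a call.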

Additional observations from a re-analysis of the deposited data

How the results depend on the processing

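Levels rest on 1 library per group, and calls on 1 read are not independent, so the intervals may understate the error. The number of the 10 genes with a stretch was 8 to 10, and the median range 8.39 to 13.6 points, in each alternative. Of 660 levels under 17 alternatives, 610 stayed inside their interval. The share of all genes with a stretch was 1.03% for levels of 40 to 60%, 9.48% for 20 to 80%, 1.61% for 20 CpGs in 600 bp, 0.580% for 30 CpGs and 13.7% for 10 CpGs. The genes called numbered 4 with a difference over 10 points (52.98% of all stretches), 0 over 30 points (8.88%), 4 on the reverse strand alone (42.7%), 1 with calls thinned to the lowest library (33.7%), and 1 with each bin counted with its mean calls per CpG (21.2%), the last chosen after seeing the data. The rise of Kcnq1ot1 was 15.6 to 31.4 points in ISCs (the highest for the shorter stretch that level limits of 40 to 60% give) and 14.9 to 19.8 points in differentiated cells over 21 alternatives, and was not called in ISCs for the 30-point limit and in differentiated cells for that limit and for thinned calls. Plagl1 at P0 ran from -19.2 to -14.0 points and was called in 18 of 21. The bins called in any comparison in the 10 stretches numbered 45 of 88 (27.8% of all CGI-like intermediate bins), 46 of 87 with at least 20 calls (29.2%), 55 of 88 without a test (51.3%) and 0 of 88 with each bin counted with its mean calls per CpG (1.25%), again chosen after seeing the data. No paired analysis was possible because each group has 1 library, so that the groups share a single replicate number.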

Other observations

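Among stretches outside the windows of all listed imprinted genes, the 8 with the most bins and a range of at most 10 points lay in the clustered protocadherins on chromosome 18 in 7 cases, in the spans of Pcdha11 and Pcdhgc5, whose genes encode cell adhesion proteins. The 8th lay in an exon of Apc2, a relative of the Wnt pathway gene Apc, at 43.1, 40.7, 38.5 and 41.3% in ISCs P0, differentiated P0, ISCs P21 and differentiated P21. Of the 3 protocadherin stretches with 11 bins, 1 in Pcdha11 with 126 CpGs had levels of 50.9, 51.3, 55.4 and 56.4%, and 1 in Pcdhgc5 with 147 CpGs had levels of 38.0, 38.1, 45.7 and 44.6%. Of the 48 stretches of at least 8 bins, 14 lay in the windows of listed imprinted genes and 13 within the protocadherin clusters.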
